A study of Mus musculus with 18 samples.

Results

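The immediate early genes Fos, Fosb, Jun, Junb, Egr1, Nr4a1, Atf3, Dusp1, Ier2 and Klf4 were followed through bulk RNA sequencing of mouse retinal pigment epithelium (RPE), the pigmented layer behind the photoreceptors. They were taken by name, 10 genes among 55333 named genes of one deposited table and 55418 of the other, and each was found in both. RPE polyA RNA came from mice at postnatal day 25, taken 1 h after light onset and used without treatment. The first table holds 6 C57BL/6 libraries (genotype C57BL/6J), 3 Tyro3-/-V1 libraries and 3 libraries labelled Mertk-/-V2Tyro3-/-V2, while 3 WT129 and 3 Itgb5-/- libraries make up the second, which was scaled on its own. Tyro3 and Mertk are receptor tyrosine kinases of one family, and Itgb5 is the beta chain of an integrin with which RPE binds shed photoreceptor outer segments. The labels call the libraries biological replicates and do not give the animals in each, the alleles behind V1 and V2, or whether a deletion is limited to one cell type, so p-values measure the spread between these libraries. No library was taken in darkness, before light onset or without dissection, so induction by light and by tissue handling cannot be told apart.

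Immediate early genes are transcribed within minutes of a stimulus, from factors already present in the cell and without new protein synthesis. Growth factors, neuronal activity, calcium, cyclic AMP and stress reach them through kinases of the MAP kinase and protein kinase A pathways, which act on the factors SRF with its ELK partners and CREB. Most members encode transcription factors, and Dusp1 encodes a phosphatase that switches the MAP kinases off again. In RPE and retina they are known to respond to light, and in dissected tissue they respond to handling and dissociation.

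Promoters of 4 members are shown: Junb and Nr4a1, whose levels went opposite ways between libraries, Dusp1, which separated Tyro3-/-V1 from C57BL/6, and Fos, the best-known immediate early gene. Each is 300 bases of RefSeq sequence on GRCm38.p6, from 250 before to 50 after the annotated start, written 5′ to 3′ on the gene's strand. Capitals mark the core of the cyclic AMP response element (CRE), TGACG or its reverse complement CGTCA.
Fos promoter, chr12:85473640-85473939, plus strand: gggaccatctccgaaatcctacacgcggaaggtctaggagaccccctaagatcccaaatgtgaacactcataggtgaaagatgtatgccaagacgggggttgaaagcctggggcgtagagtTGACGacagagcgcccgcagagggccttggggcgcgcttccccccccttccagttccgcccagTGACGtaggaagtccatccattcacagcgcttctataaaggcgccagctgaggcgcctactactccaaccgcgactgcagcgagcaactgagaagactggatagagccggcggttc
Junb promoter, chr8:84978699-84978998, minus strand: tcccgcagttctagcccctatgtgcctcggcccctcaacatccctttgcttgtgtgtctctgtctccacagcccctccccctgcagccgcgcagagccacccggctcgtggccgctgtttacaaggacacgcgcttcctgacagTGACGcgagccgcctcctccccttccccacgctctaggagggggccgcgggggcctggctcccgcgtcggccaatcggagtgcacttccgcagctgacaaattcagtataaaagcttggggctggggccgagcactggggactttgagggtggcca
Nr4a1 promoter, chr15:101266596-101266895, plus strand: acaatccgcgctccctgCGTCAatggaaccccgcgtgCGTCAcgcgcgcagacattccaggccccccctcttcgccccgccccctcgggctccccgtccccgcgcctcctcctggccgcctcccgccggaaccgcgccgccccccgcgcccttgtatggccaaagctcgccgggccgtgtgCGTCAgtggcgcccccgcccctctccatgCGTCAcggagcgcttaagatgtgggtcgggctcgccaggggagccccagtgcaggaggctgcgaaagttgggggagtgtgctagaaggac
Dusp1 promoter, chr17:26508423-26508722, minus strand: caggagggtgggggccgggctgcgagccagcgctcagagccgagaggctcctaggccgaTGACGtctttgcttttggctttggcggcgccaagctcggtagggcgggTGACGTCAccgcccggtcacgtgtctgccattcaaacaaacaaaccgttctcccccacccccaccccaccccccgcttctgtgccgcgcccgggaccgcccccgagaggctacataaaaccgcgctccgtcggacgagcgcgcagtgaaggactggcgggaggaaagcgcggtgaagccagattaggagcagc

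The CRE core occurred in the promoters of 7 of the 8 members that could be matched, and in 20.8% of all 32851 promoters in the table. Nr4a1 held it 4 times, Dusp1 3 times, Fos 2 times and Junb once, while Jun had no match in this window. The full palindrome TGACGTCA, which contains the core on both strands, was found in Dusp1 alone among the matched members and in 1.79% of all promoters. The AP-1 site TGANTCA, searched on both strands, was in 0 of 8 members and 7.81% of all promoters, and the CArG box, the binding motif of SRF, was in 0 of 8 and 1.63%. These are matches of letters within 300 bases, not measured binding, and enhancers and more distant sequence were not searched.

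The libraries held 14135502 to 30401422 reads, and a member's level rested on 19 reads (Fosb and Atf3, in their lowest libraries) to 5382 reads (Klf4, in its highest). All 10 members passed the filter for low values, which asks for a normalized count of 10 or more in 3 libraries of a table. Tyro3 was lower in Tyro3-/-V1 (log2 fold change −1.55, limma adjusted p = 0.000935) and in libraries labelled Mertk-/-V2Tyro3-/-V2 (−1.16, limma adjusted p = 0.0101). Itgb5 was lower in Itgb5-/- (−1.58, limma adjusted p = 0.0176), while Mertk was not lower in the libraries labelled Mertk-/-V2Tyro3-/-V2 (−0.06, 95% interval −0.47 to 0.35). A total per gene cannot see the loss of part of a transcript. The Tyro3 call in libraries labelled Mertk-/-V2Tyro3-/-V2 was lost without C57BL/6 replicate 1 or 2 (limma adjusted p up to 0.0605), and that of Itgb5 without WT129 replicate 1 or 3 or any Itgb5-/- library (up to 0.257). All 12 RPE markers were present in both tables, where a marker under a normalized count of 10 in every library of a table counts as absent. The 9 ocular surface epithelium markers and the 10 rod markers were also all present, with summed normalized counts of 53440 to 406991 and of 32645 to 434222 per library. C57BL/6 replicates 1 to 3 and all mutant libraries of the first table carry the mark 23 in their names, which C57BL/6 replicates 4 to 6 lack, and the labels do not say what it means. C57BL/6 replicate 1 and replicate 3 labelled Mertk-/-V2Tyro3-/-V2 lie at opposite ends of the first principal component, which held 47.3% of the variance of the first table.

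Levels per kilobase of exon ordered the members in the same way at the top and the bottom of every group. In C57BL/6 the order was Klf4 at 787 ± 236 normalized counts per kilobase, Jun at 485 ± 122, Junb at 459 ± 214, Ier2 at 293 ± 105, Dusp1 at 166 ± 56.9, Egr1 at 150 ± 109, Fos at 102 ± 45.7, Nr4a1 at 47.6 ± 16.0, Atf3 at 19.98 ± 9.08 and Fosb at 7.30 ± 3.69 (SD, n = 6). Neighbours that lay within the larger of their SDs were Jun and Junb, Junb and Ier2, Dusp1 and Egr1, and Egr1 and Fos. In WT129 Klf4 stood at 1166 ± 548 per kilobase and Fosb at 31.5 ± 13.4 (SD, n = 3), and Dusp1 took the fourth place with 499 ± 248, above Ier2 with 236 ± 108.

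**Figure D1:**
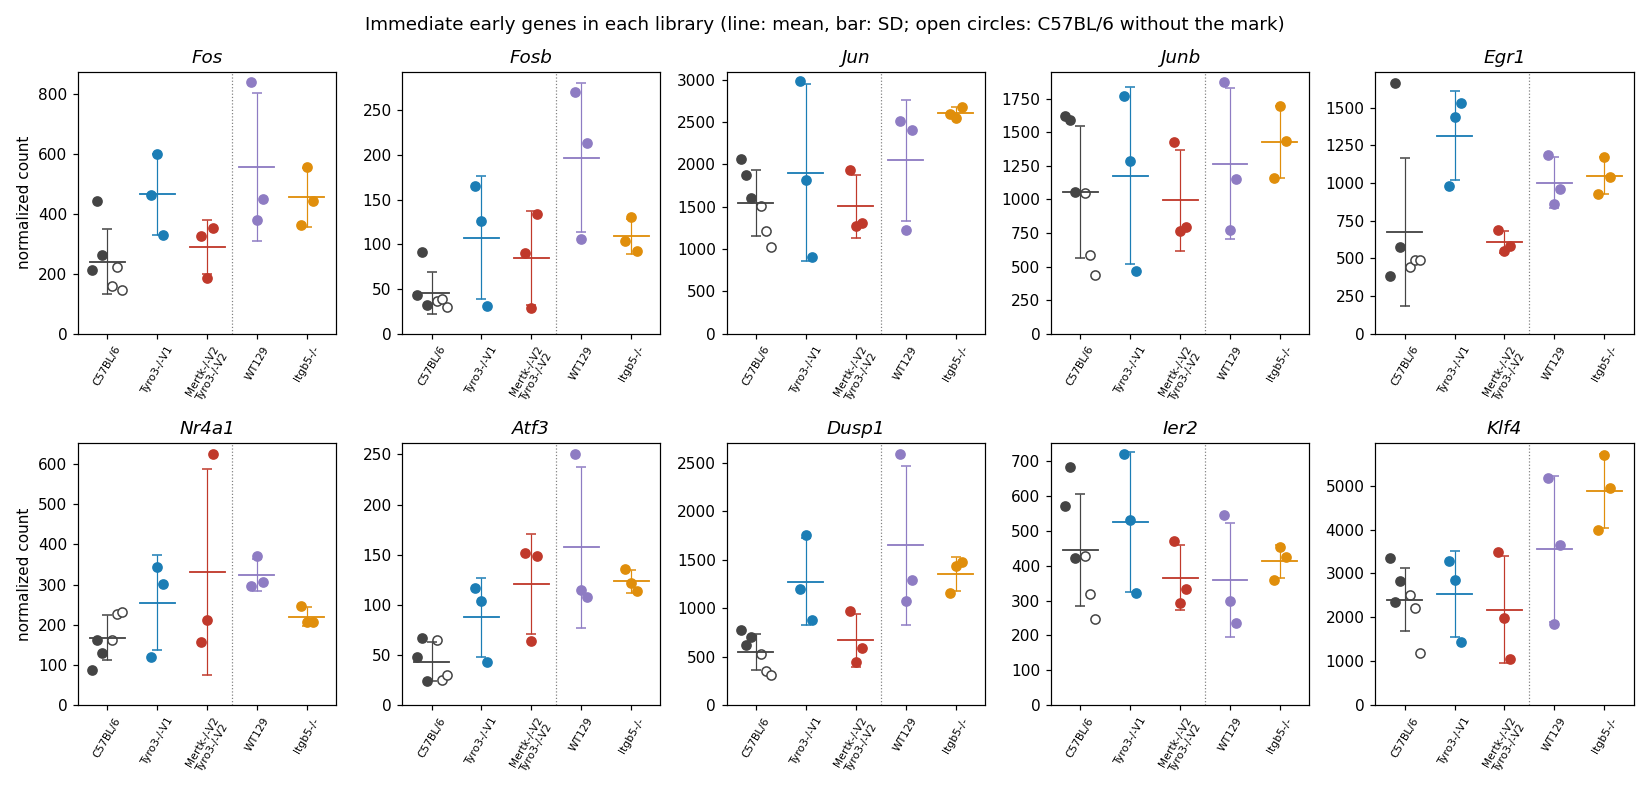
Normalized counts (vertical axes, from 0) of each immediate early gene in every library of the 5 groups (horizontal axis); each point is 1 library, lines are group means and bars the SD, open circles are C57BL/6 replicates 4 to 6, and the dotted line separates the tables, which were normalized separately. Dusp1 in the 3 Tyro3-/-V1 libraries (873 to 1754) sits above all 6 C57BL/6 libraries (309 to 778), and WT129 replicate 1 is the top point of the second table for 7 of the 10 genes.

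Fos and Fosb encode the Fos partners of the AP-1 dimer, which bind DNA together with a Jun protein. Fos (ENSMUSG00000021250, chr12:85473890-85477273, plus strand) had its lowest, median and highest values in C57BL/6 at 144, 217 and 441 normalized counts. It stood at 464, 601 and 330 in Tyro3-/-V1 replicates 1 to 3, at 325, 186 and 353 in those labelled Mertk-/-V2Tyro3-/-V2, at 838, 379 and 448 in WT129 and at 363, 556 and 444 in Itgb5-/-. C57BL/6 replicate 2 was the one control library in the Tyro3-/-V1 range, and no pair of groups within a table was separated. Fosb (ENSMUSG00000003545, chr7:19302696-19310051, minus strand), the least abundant member per kilobase of exon, had 29.8, 38.2 and 91.4 in C57BL/6 as lowest, median and highest. It had 166, 126 and 31.3 in Tyro3-/-V1, and 90.2, 29.2 and 135 in the libraries labelled Mertk-/-V2Tyro3-/-V2, a wide spread inside each group. In WT129 it had 271, 106 and 214, and in Itgb5-/- 104, 130 and 92.1, so the groups of the second table overlapped.

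Jun and Junb encode the Jun partners of AP-1, of which Jun activates transcription strongly and Junb more weakly. Jun (ENSMUSG00000052684, chr4:95049034-95052222, minus strand) had 2065, 1872 and 1600 in the C57BL/6 libraries with the mark, all above the 1510, 1215 and 1027 in those without it. It had 2984, 1820 and 900 in Tyro3-/-V1 replicates 1 to 3, and 1935, 1268 and 1306 in the libraries labelled Mertk-/-V2Tyro3-/-V2. In the second table WT129 had 2513, 1224 and 2400, and the Itgb5-/- libraries lay close together at 2597, 2546 and 2674, above all 3 WT129 libraries. Junb (ENSMUSG00000052837, chr8:84974484-84978718, minus strand) had 1619, 1592 and 1054 in the C57BL/6 libraries with the mark and 1045, 583 and 438 in those without it. The 2 sets of C57BL/6 did not overlap, though their nearest libraries were almost equal. Tyro3-/-V1 had 1773, 1288 and 469, those labelled Mertk-/-V2Tyro3-/-V2 had 1427, 764 and 792, WT129 had 1878, 774 and 1150, and Itgb5-/- had 1157, 1693 and 1433. The antisense gene Junos overlaps Jun, and Prdx2 overlaps the end of Junb on the other strand. The labels do not say whether strand was used in counting, so reads of these partners cannot be told apart from those of the members.

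Atf3 (ENSMUSG00000026628, chr1:191170296-191218039, minus strand), a stress-induced factor of the ATF/CREB family that also pairs with Jun proteins, was low in C57BL/6, with 24.3, 38.7 and 66.8 as lowest, median and highest. It had 116, 104 and 42.7 in Tyro3-/-V1 and 151, 63.5 and 148 in the libraries labelled Mertk-/-V2Tyro3-/-V2. Replicates 1 and 3 of the latter stood above every C57BL/6 library, and replicate 2 fell within the C57BL/6 range. WT129 had 250, 114 and 108, and Itgb5-/- had 135, 122 and 113.

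Egr1 and Klf4 encode zinc finger transcription factors. Egr1 (ENSMUSG00000038418, chromosome 18), a widely used marker of recent MAP kinase signalling, had 384, 1664 and 576 in the C57BL/6 libraries with the mark and 442, 488 and 491 in those without it. Apart from replicate 2, the C57BL/6 libraries lay between 384 and 576. Tyro3-/-V1 had 977, 1437 and 1529, and those labelled Mertk-/-V2Tyro3-/-V2 had 691, 548 and 585, so these mutant groups did not overlap. In the second table Egr1 was even, with 1186, 861 and 962 in WT129 and 929, 1175 and 1041 in Itgb5-/-. Klf4 (ENSMUSG00000003032, chr4:55527143-55532466, minus strand), which besides its early induction is a known regulator of surface epithelia such as cornea and conjunctiva, was the most abundant member. It had 3342, 2342 and 2818 in the marked C57BL/6 libraries and 2503, 2210 and 1182 in the unmarked ones. Tyro3-/-V1 had 3295, 2859 and 1427, those labelled Mertk-/-V2Tyro3-/-V2 had 3480, 1993 and 1048, WT129 had 5176, 1837 and 3657, and Itgb5-/- had 3997, 5698 and 4954. Every pair of groups within a table overlapped for Klf4.

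Nr4a1 (ENSMUSG00000023034, chr15:101254269-101274795, plus strand) encodes an orphan nuclear receptor whose activity follows its level. It had 86.7, 163 and 130 in the marked C57BL/6 libraries and 163, 227 and 232 in the unmarked ones. Tyro3-/-V1 had 120, 344 and 300, and those labelled Mertk-/-V2Tyro3-/-V2 had 157, 212 and 625, of which the last was the highest of the table. In the second table WT129 had 296, 371 and 306, and all 3 lay above the Itgb5-/- libraries with 247, 207 and 206.

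Dusp1 and Ier2 complete the set. Dusp1 (ENSMUSG00000024190, chr17:26505590-26562128, minus strand), the MAP kinase phosphatase, had 778, 622 and 705 in the marked C57BL/6 libraries and 527, 355 and 309 in the unmarked ones. Every marked library lay above every unmarked one. Tyro3-/-V1 had 1196, 1754 and 873, above all 6 C57BL/6 libraries, and those labelled Mertk-/-V2Tyro3-/-V2 had 971, 448 and 584. WT129 had 2590, 1071 and 1291, and Itgb5-/- had 1152, 1437 and 1475. Its annotated gene overlaps Ergic1 on the other strand and 3 shorter genes. Ier2 (ENSMUSG00000053560, chr8:84661331-84662852, minus strand), a small nuclear protein gene induced by growth factors, had 572, 683 and 422 in the marked C57BL/6 libraries and 429, 318 and 248 in the unmarked ones. It had 722, 533 and 322 in Tyro3-/-V1, 470, 292 and 334 in those labelled Mertk-/-V2Tyro3-/-V2, 545, 299 and 234 in WT129 and 360, 453 and 424 in Itgb5-/-, and no pair of groups was separated.

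The question whether loss of the receptors changed these genes was asked with limma on all genes of a table. A fold change against C57BL/6 rests on the marked C57BL/6 libraries, because the fit has a term for the mark. In bulk RNA, fewer cells of a type and less RNA per cell cannot be told apart. The 4 comparisons within the first table share libraries, so their values stand side by side and are not independent of each other.

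Of the 10 members, 0 differed past the threshold between libraries labelled Mertk-/-V2Tyro3-/-V2 and C57BL/6, beside 0.523% of all genes tested with limma. At an unadjusted p under 0.05 there were 2 members of 10 with limma, 2 with edgeR and 2 with DESeq2, beside 21.9%, 23.4% and 24.9% of all genes, so the members' share was near the background. With limma these were Atf3, at a log2 difference of 1.38 ± 0.54 (SE, limma adjusted p = 0.190, higher in 2 of 3 libraries than every C57BL/6 library), and Nr4a1, with 1.16 ± 0.52 (SE, limma adjusted p = 0.227). Without replicate 3 of the mutant group, Nr4a1 was at 0.57. Fosb was at 0.48 (1.11 without replicate 2 of the mutant group), and the other 7 members had values of −0.62 (Ier2) to −0.07 (Fos). The median over the members was −0.19 and over all genes 0.01. None of the members was separated from all 6 C57BL/6 libraries, where 3.47% of all genes lay above and 2.36% below. Of 13 lists of cell type markers, that of lens was above all 6 without overlap. Against the marked C57BL/6 libraries, 3 lists were above (cone, endothelial and lens) and 2 below (RPE and striated muscle). The part of these cells in the Atf3 and Nr4a1 values was not tested.

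In Tyro3-/-V1 against C57BL/6, 0 of 10 members passed, beside 0.0457% of all genes with limma, and the same single member, Dusp1, had an unadjusted p under 0.05 with limma, edgeR and DESeq2, beside 6.71%, 7.02% and 7.23% of all genes. Dusp1 was at 0.81 ± 0.32 on the log2 scale (SE, limma adjusted p = 0.683). It was the 1 member of 10 whose Tyro3-/-V1 libraries all lay above the 6 C57BL/6 libraries, as did those of 2.59% of all genes, and 0 members lay below, where 1.46% of all genes did. Of 13 lists of cell type markers, that of fibroblasts and mural cells was separated in the same way, with sums over its 10 markers, all present, of 51462 to 59933 in Tyro3-/-V1 and 29114 to 41082 in C57BL/6. Its part in the Dusp1 values was not tested. Nr4a1, Atf3, Egr1, Fosb and Fos had values of 0.91, 0.90, 0.85, 0.77 and 0.64, each with a 95% interval that included 0. Jun, Ier2, Klf4 and Junb were at −0.11, −0.14, −0.24 and −0.45. The median over the members was 0.70 and over all genes −0.002. Without C57BL/6 replicate 2, Egr1 was at 1.45, and Fosb was at 0.31 without Tyro3-/-V1 replicate 1 and at 1.497 without Tyro3-/-V1 replicate 3.

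Between the mutant groups, the libraries labelled Mertk-/-V2Tyro3-/-V2 had lower values than Tyro3-/-V1 for 8 of 10 members, with a median log2 fold change of −0.29 against −0.01 over all genes. None passed the threshold, beside 0.137% of all genes with limma, and 2 members with limma, 2 with edgeR and 3 with DESeq2 had an unadjusted p under 0.05, where 13.8%, 16.2% and 17.3% of all genes did. With limma these were Egr1 at −1.09 ± 0.42 (SE, limma adjusted p = 0.315, lower in 3 of 3 libraries than every Tyro3-/-V1 library) and Dusp1 at −0.95 ± 0.32 (SE, limma adjusted p = 0.273). Egr1 was the single member below without overlap, as were 7.22% of all genes, and 0 members were above, where 10.9% of all genes were. Fos stood at −0.70, with a 95% interval of −1.44 to 0.04. Of the 13 marker lists, 3 were also above without overlap (cone, Muller glia and inner retinal neuron) and 2 below (RPE, and fibroblast and mural), and their part in the Egr1 and Dusp1 values was not tested.

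Within C57BL/6, the libraries with the mark had higher values than those without it for 9 of 10 members, and Nr4a1 was the exception at −0.74. The median over the members was 0.59 and over all genes 0.01. Again 0 members passed, beside 0.167% of all genes with limma, while 4 members with limma, 2 with edgeR and 5 with DESeq2 had an unadjusted p under 0.05, beside 24.0%, 23.2% and 25.3% of all genes. With limma these were Junb at 1.11 ± 0.48, Dusp1 at 0.85 ± 0.32, Ier2 at 0.76 ± 0.32 and Fos at 0.75 ± 0.33 (SE), with limma adjusted p-values of 0.170 to 0.204. Jun, Junb and Dusp1 were above without overlap, 3 of 10 members beside 17.9% of all genes, and 0 were below beside 17.3%. The marker lists moved as well, 4 of 13 above and 4 below without overlap. The marked set had the higher ocular surface sum (264329 to 406991 beside 83295 to 235002) and the lower rod sum (32645 to 120380 beside 131923 to 349928). The part of these markers in the differences was not tested.

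In Itgb5-/- against WT129, 5 members had higher and 5 lower values, with a median log2 fold change of −0.06 beside 0.04 over all genes. None passed, beside 0.0375% of all genes with limma, and 1 member with limma, 2 with edgeR and 2 with DESeq2 had an unadjusted p under 0.05, where 8.28%, 8.71% and 10.2% of all genes did. With limma this was Nr4a1 at −0.56 ± 0.18 (SE, limma adjusted p = 0.456), lower in 3 of 3 libraries than every WT129 library. The 10 rod markers, all present, were separated in the same direction, with sums of 60431 to 121759 in Itgb5-/- and 182269 to 434222 in WT129, as were the 12 inner retinal neuron markers with 15382 to 17080 and 18949 to 27898. The cone markers were also below without overlap and those of microglia and of striated muscle above, and the part of these cells in the Nr4a1 values was not tested. Nr4a1 was the 1 member below without overlap, beside 7.68% of all genes, and Jun at 0.42 was the 1 member above, beside 7.67%. Fosb was at −0.76, with a 95% interval of −1.61 to 0.09, and Klf4 at 0.57, with −0.25 to 1.39.

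**Figure D2:**
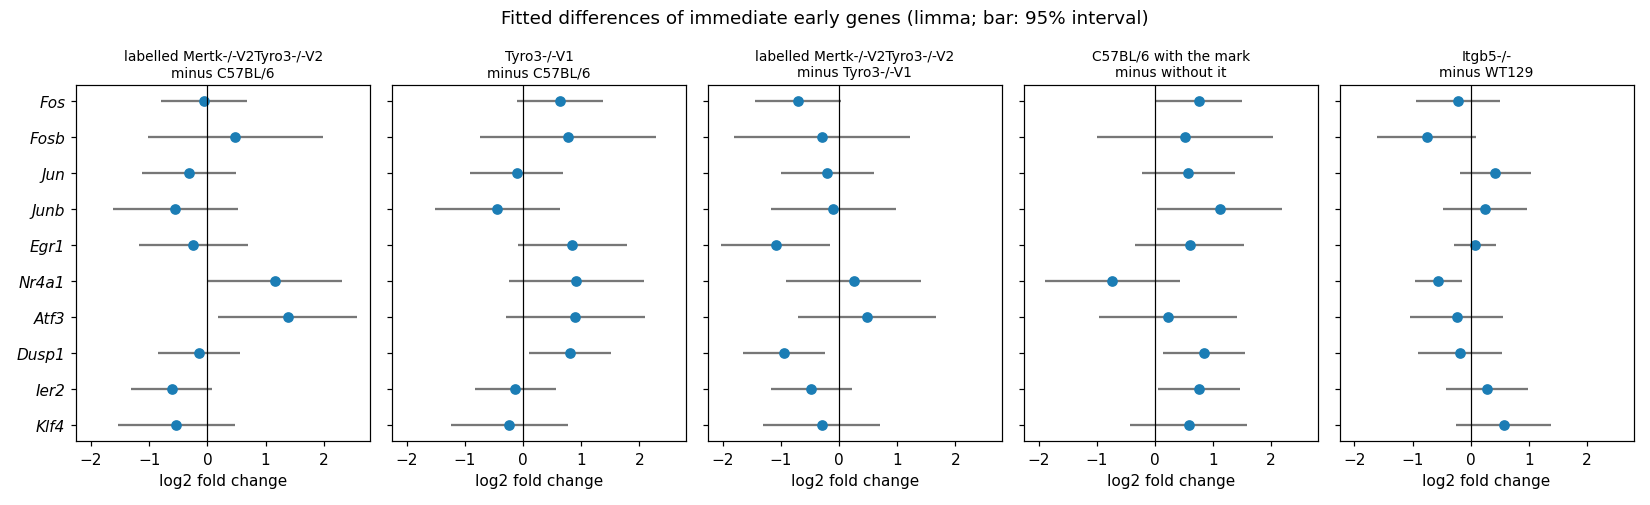
Fitted log2 fold changes (horizontal axes) of the immediate early genes (vertical axis) in the 5 comparisons, with limma's 95% intervals as bars. The intervals are 1.40 to 3.02 wide in the first table and 0.725 to 1.70 in the second, and those that leave out 0 belong to genes whose adjusted p was at least 0.170.

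Set side by side, untested because the tables were normalized separately, the ranges of the wild-type strains did not overlap for several members. How many of all genes separate in this way was not counted, so these values do not single out the members. Dusp1 ran from 1071 to 2590 in WT129 and from 309 to 778 in C57BL/6. Fosb ran from 106 to 271 beside 29.8 to 91.4, and Atf3 from 108 to 250 beside 24.3 to 66.8. Nr4a1 ran from 296 to 371 beside 86.7 to 232. For Fos, Jun, Junb, Egr1, Ier2 and Klf4 the ranges of the strains overlapped.

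The spread between libraries of one group was larger for the members than for most genes. In the first table the within-group SD of log2 values was 0.43 (Ier2) to 0.93 (Fosb), above that of 67.1% to 93.8% of the genes kept, whose median was 0.28. Of the members in the second table, 8 had an SD of 0.41 to 0.57, while Egr1 with 0.21 and Nr4a1 with 0.16 lay below the median of 0.29 over all genes. The log2 deviations from the group mean were averaged over the members, with marked and unmarked C57BL/6 as separate groups. In the first table this average was largest in size in Tyro3-/-V1 replicate 3 (−0.606) and replicate 2 labelled Mertk-/-V2Tyro3-/-V2 (−0.445). In the second it was largest in WT129 replicates 1 (0.529) and 2 (−0.439). Ranks over a whole table also hold the differences between groups. Tyro3-/-V1 replicate 1 was the highest of the first table for 4 members, C57BL/6 replicate 6 was the lowest for 4, and Tyro3-/-V1 replicate 2 lay above the table mean for all 10. WT129 replicate 1 was the highest of the second table for 7 members and WT129 replicate 2 the lowest for 5, so WT129 held both ends.

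**Figure D3:**
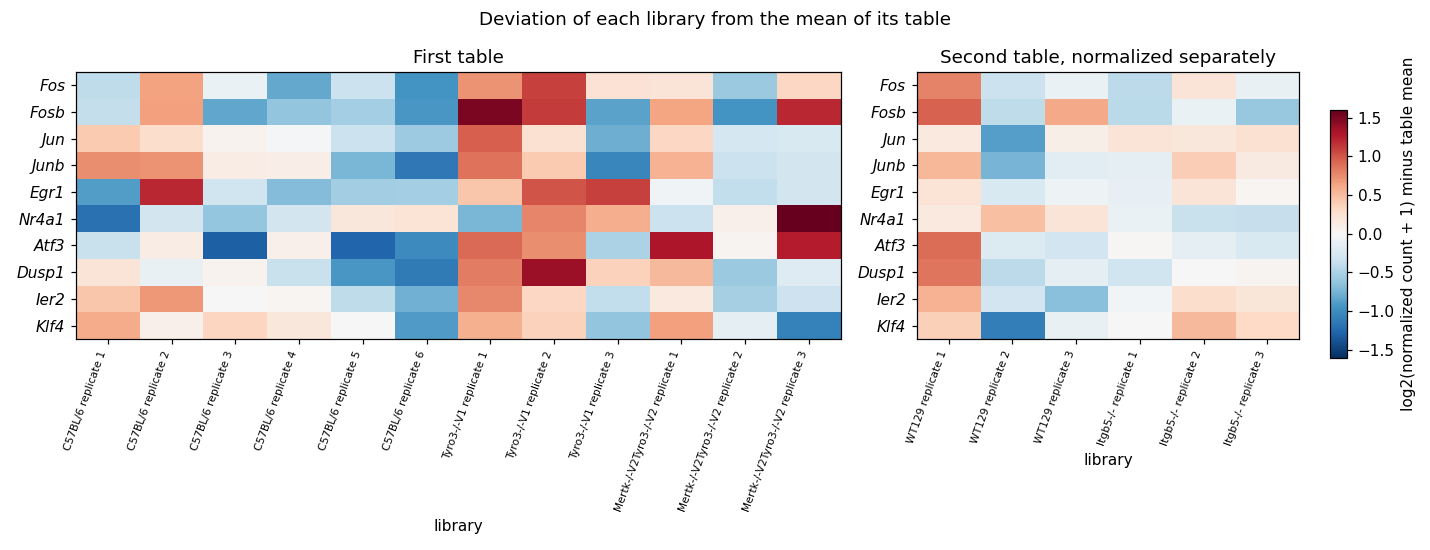
Difference of each library (columns) from the mean of its table, in log2 of the normalized count plus 1 (color, red higher and blue lower), for the immediate early genes (rows). C57BL/6 replicate 6 is below the mean for 9 of 10 genes, Tyro3-/-V1 replicate 2 is above it for all 10, and Nr4a1 is the single gene above the mean in C57BL/6 replicates 5 and 6 and WT129 replicate 2 and the single gene below it in Tyro3-/-V1 replicate 1.

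Most members went up and down together from library to library within groups. Over the deviations from the group means, 35 of 45 pairs of members had a positive Pearson r in the first table, with a median of 0.49 (12 libraries), and 36 of 45 in the second, with a median of 0.78 (6 libraries). These are descriptions, since the points share libraries, scaling and depth. Pairs of other genes were not examined in this way, so a trait particular to the members cannot be read from them. Junb had the highest median r with the other members in both tables, 0.75 and 0.89. Nr4a1 had the lowest, −0.27 and −0.76, and Egr1 went with the others in the second table (0.81) but hardly in the first (0.08).

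In the first table, levels of Jun, Junb and Klf4 followed the order of the libraries by ocular surface epithelium markers, keratins and other genes of cornea and conjunctiva. There, 11 of 12 libraries lay within 2 places of the marker order for each of these genes. The marker sum was 406991 in C57BL/6 replicate 1, where Klf4 was 3342 and Junb 1619. It was 83295 in C57BL/6 replicate 6, where they were 1182 and 438, and 84021 in Tyro3-/-V1 replicate 3, where they were 1427 and 469. The exception for Junb was replicate 3 labelled Mertk-/-V2Tyro3-/-V2, which had the lowest marker sum (53440) and a Junb of 792. The rank correlation (Spearman rho) with the marker sum was 0.881 for Jun, 0.874 for Junb and 0.923 for Klf4. Fos, Egr1 and Atf3 hardly followed this order, with rho of 0.154, −0.049 and 0.182, and 5, 5 and 8 of 12 libraries within 2 places. Fosb, Dusp1 and Ier2 had 7 of 12 libraries each within 2 places, with rho of 0.315, 0.545 and 0.776. Nr4a1 ran the other way (rho −0.909), from 86.7 in the library with the highest ocular surface sum to 625 in that with the lowest. Rod marker sums were 32645 and 259063 in these libraries. For Nr4a1, 8 of 12 libraries lay within 2 places of the rod marker order, with a rho of 0.462. The highest rod sum, 349928, was in C57BL/6 replicate 5, where Nr4a1 was 227. In the second table all 6 libraries lay within 2 places of the ocular surface order for Junb, Klf4, Egr1, Fos, Dusp1 and Ier2 and of the rod order for Nr4a1, which is a loose match among 6. Jun had 5 of 6 there, which so few libraries cannot set apart from 6 of 6. Its rho with the ocular surface sum was 0.371 there, as was that of Fosb, and that of Atf3 was 0.257. Junb, Klf4, Egr1, Fos, Dusp1 and Ier2 had rho of 0.771 to 0.943. The rho of Nr4a1 there was 0.771 with the rod sum and −0.6 with the ocular surface sum. By group the ocular surface sum was 53440 to 302117 in libraries labelled Mertk-/-V2Tyro3-/-V2, 84021 to 345420 in Tyro3-/-V1, 83295 to 406991 in C57BL/6, 116586 to 313346 in WT129 and 201398 to 349084 in Itgb5-/-. None of its 9 markers was under a normalized count of 10 in every library of a table, and the part of other cell types in the members' levels was not tested.

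**Figure D4:**
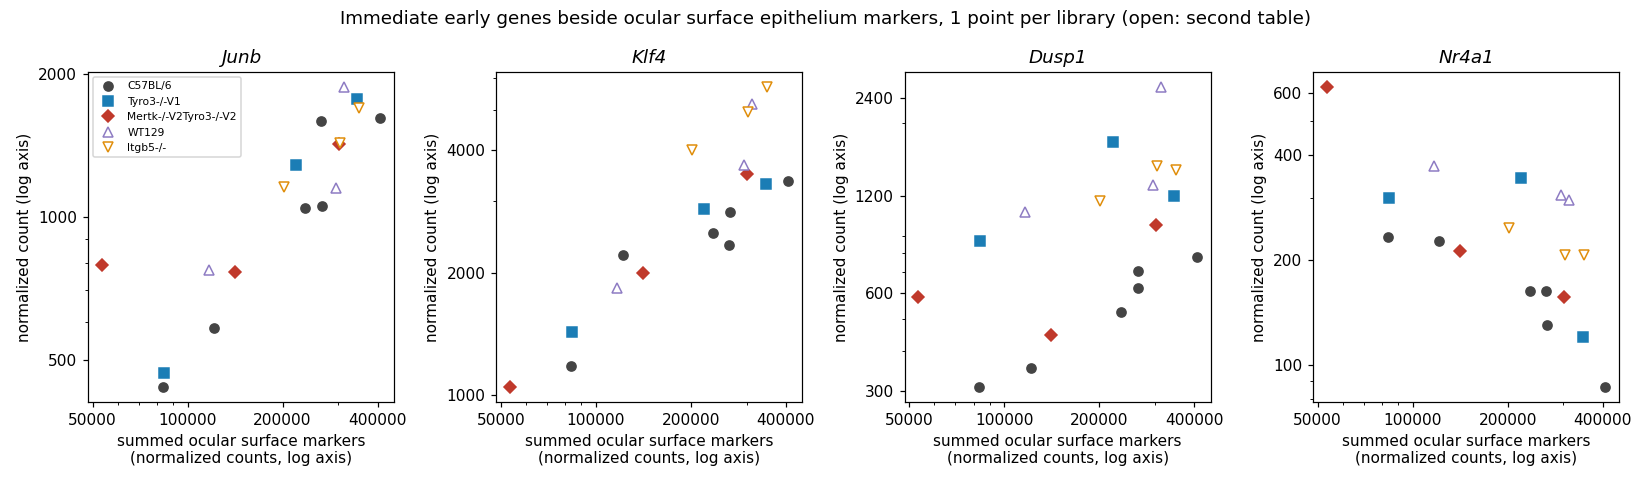
Normalized counts of Junb, Klf4, Dusp1 and Nr4a1 (vertical axes, log) against the summed normalized counts of 9 ocular surface epithelium markers (horizontal axes, log), 1 point per library, open symbols for the second table. Klf4 and Junb lie higher where the marker sum is higher, Nr4a1 lies lower, and Dusp1 in Tyro3-/-V1 sits above C57BL/6 at like marker sums. The C57BL/6 libraries nearest in marker sum to Tyro3-/-V1 replicates 2 and 3 are replicates 4 and 6, which lack the mark 23. Dusp1 is lower in the C57BL/6 libraries without the mark than in those with it.

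The inducible heat shock genes Hspa1a and Hspa1b, a near-identical pair whose reads are summed here, showed a similar order. They, Npas4 and Nr4a2 were chosen after their values were seen. The sum of the pair was 5249 in C57BL/6 replicate 1 and 1565 in replicate 6, and 5719, 3377 and 1483 in Tyro3-/-V1 replicates 1 to 3. It was 4159, 2254 and 1086 in libraries labelled Mertk-/-V2Tyro3-/-V2, ran from 1690 to 4030 in WT129, and was 3049, 4282 and 4513 in Itgb5-/-. The pair belongs to a list of 15 heat shock and dissociation genes. The sum of that list was 143285 and 116898 in C57BL/6 replicates 1 and 6. In Tyro3-/-V1 replicates 1 to 3 it was 135411, 129630 and 133800, so the list did not follow the pair there. Npas4, an early gene known from neurons, was also highest in the library where Nr4a1 peaked, with 63.9 in replicate 3 labelled Mertk-/-V2Tyro3-/-V2 and 30.1 and 37.7 in C57BL/6 replicates 5 and 6. Nr4a2, a relative of Nr4a1, had 122 in that mutant library, 73.8 in C57BL/6 replicate 6 and 202 in C57BL/6 replicate 1, so the relatives did not share an order. The cause of these orders was not tested.

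By a fixed rule, the 5 genes outside the set whose within-group deviations were most like the mean of the members over the 12 libraries of the first table were Tnf, Cdc6, Zfp623, Nob1 and Ccdc166, with Pearson r of 0.94, 0.91, 0.91, 0.91 and 0.91. Over the 6 libraries of the second table, which the choice did not use, r was 0.93 for Tnf, 0.74 for Cdc6, 0.29 for Zfp623, −0.08 for Nob1 and 0.12 for Ccdc166. Tnf, an inflammatory cytokine, had 173, 67.8 and 67.2 normalized counts in WT129 and 149, 182 and 171 in Itgb5-/-. These r values are descriptions over libraries that share depth and scaling.

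Among other genes of the early response, Cebpd and Socs3 alone passed the threshold, both in libraries labelled Mertk-/-V2Tyro3-/-V2 compared with C57BL/6. Cebpd, a C/EBP factor induced in acute-phase responses, had 389, 354 and 533 normalized counts there, and 119 to 208 in C57BL/6. On the log2 scale it rose by 1.28 ± 0.18 (SE, limma adjusted p = 0.0268), and all 3 libraries lay above all C57BL/6 libraries. Socs3, the feedback inhibitor of cytokine signalling through STAT3, had 384, 362 and 427 beside 162 to 224 and rose by 1.06 ± 0.16 (SE, limma adjusted p = 0.0268). Markers of lens, RPE and other cell types moved with these genes. The 9 lens markers, all present, summed to 162496 to 731250 in these libraries and to 16414 to 155290 in C57BL/6, and the 12 RPE markers to 381052 to 599518 beside 710517 to 902785 in the marked C57BL/6 libraries. Against the marked C57BL/6 libraries, the cone and endothelial markers were also above and those of striated muscle below without overlap. The part of these cell types in both calls was not tested. Each passed in 15 of 24 alternative settings, with adjusted p up to 0.156 for Cebpd and 0.180 for Socs3. Both calls were lost with only marked libraries (limma adjusted p = 0.0627 for Cebpd and 0.0565 for Socs3), with only the compared groups (0.0562 and 0.0523) and without both ends of the first component (0.151 and 0.180). They were also lost without C57BL/6 replicate 1, 2 or 3, Tyro3-/-V1 replicate 2 or replicate 1 labelled Mertk-/-V2Tyro3-/-V2, that of Cebpd also without C57BL/6 replicate 6 and that of Socs3 without replicate 3 labelled Mertk-/-V2Tyro3-/-V2, while the log2 fold changes stayed between 0.96 and 1.48 over all settings. In Tyro3-/-V1 Cebpd was at 0.48 and Socs3 at 0.21, neither past the threshold. Cebpd ran from 224 to 254 there, above all C57BL/6 libraries (limma adjusted p = 0.667). In Itgb5-/- Cebpd ran from 282 to 304, above all WT129 libraries with 184 to 250 (log2 fold change 0.42, limma adjusted p = 0.603). Socs3 overlapped in both of these comparisons. The part of other cell types in these Cebpd values was not tested.

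The count in the lists was therefore 1 of 18 tested early transcription factors that rose (Cebpd; Fosl1 and Egr4 were under 10 in every library), and 1 of 21 early feedback regulators (Socs3), and 0 fell. The medians of these lists in that comparison were −0.07 and −0.10, beside 0.01 over all genes. Of 23 other early effectors, 20 upstream kinases and factors and 15 heat shock and dissociation genes, 0 passed in any of the 5 comparisons, and 0 of the 18 and 21 passed in the other 4. By level per kilobase the leading gene of each list without a call was Sgk1, a kinase induced by glucocorticoids, with 19213 ± 1981 normalized counts in C57BL/6 (SD, n = 6) and 17720 ± 3036 in the libraries labelled Mertk-/-V2Tyro3-/-V2 (SD, n = 3). Mapk3, which encodes the kinase ERK1, had 2791 ± 332 and 2521 ± 209, and Hsp90aa1, a chaperone, had 36221 ± 2212 and 32557 ± 3465. In the comparisons without a call in their lists, the examples were Bhlhe40, a repressor that responds to light and hypoxia, with 4276 ± 528 in C57BL/6 and 4430 ± 44.3 in Tyro3-/-V1, and Dusp4, a nuclear MAP kinase phosphatase, with 6758 ± 1437 and 7796 ± 1680 (SD, n = 6 and 3). In the marked against the unmarked C57BL/6 libraries the medians of the 5 lists were 0.45, 0.30, 0.12, 0.17 and 0.25 in the order given here, all above the 0.01 over all genes.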

How the data were processed

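The deposited signal per gene is a normalized count; STAR and DESeq2 on GRCm38 and mm10 are named, without versions or roles, per the submitters' processing notes. Each library's values were whole multiples of a single step, within 0.001 of a read for 100% of them, so the authors had divided whole counts by 1 size factor per library, and reads could be recovered. Lines without a name were named from their identifier (3093) or left out (240 and 3, at most 0.0203% of a library). Whether counting used strand is not given in the sources used here.

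Normalized counts plus a pseudocount of 1 were taken to log2 and fitted gene by gene with limma 3.58.1 in R 4.3.3 (trend, robust). Genes reaching 10 in 3 or more libraries were kept, 19711 and 18652. The first table's model had terms for group and for the mark, the second's for group. Tests were two-sided with Benjamini-Hochberg adjustment over all genes kept and a threshold of 0.05. The ± after a log2 fold change is its standard error. No replicate pair differed by less than sampling noise. Intervals from counts cover counting error only and none is printed.

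The members and lists were chosen with earlier results of these data known. All members are described; targeted genes are named as a check of labels; from each list the genes past the threshold are named, or the one of highest level per kilobase of exon (GENCODE M21). Promoters came from the RefSeq table of GRCm38.p6, which matched 8 of 10 members. Alternatives were pseudocounts of 0.5 and 10, no filter, a filter of 50, TMM, edgeR 4.0.16 and DESeq2 1.42.0 on recovered reads, the replicate number as a block, no term for the mark, marked libraries only, compared groups only, and each library left out. Leaving out both ends of the first component was chosen after seeing the data. Scripts were tested on simulated data.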

Additional observations from a re-analysis of the deposited data

Results flagged for a closer look

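Egr1 and Fosb each had a C57BL/6 library that stood apart from the other 5, and in both cases it was replicate 2. Egr1 had 1664 normalized counts there, and its gap to the next library was 0.85 of the range of the group. Fosb had 91.4, with a gap of 0.773 of the range. The threshold for a gap to be listed is one that chance passes in about 1 of 20 groups, and all 10 members were examined. The other groups have 3 libraries and were not examined in this way.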

How the results depend on the processing

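The count of members past the threshold was 0 in every comparison under each of the settings run for it (30 in all), and the lowest adjusted p of a member in any of them was 0.0639. Of 540 fold changes with 1 library left out, 512 kept their direction and 28 did not, and of 530 under the other settings 515 kept it. The values that changed sign belonged to members whose interval included 0, and the cause was not tested. Over the settings with 1 library left out, the log2 fold changes that changed sign had these ranges. For Mertk-/-V2Tyro3-/-V2 against C57BL/6 these were Fos (−0.29 to 0.23), Egr1 (−0.69 to 0.36) and Dusp1 (−0.45 to 0.11). For Tyro3-/-V1 against C57BL/6 they were Jun (−0.52 to 0.34), Junb (−0.84 to 0.12), Ier2 (−0.40 to 0.18) and Klf4 (−0.47 to 0.13). Between the mutant groups they were Fosb (−1.01 to 0.34), Jun (−0.66 to 0.20), Junb (−0.67 to 0.29), Nr4a1 (−0.34 to 0.65) and Klf4 (−0.72 to 0.15). Within C57BL/6 they were Egr1 (−0.0078 to 1.05) and Atf3 (−0.0953 to 0.63). For Itgb5-/- against WT129 they were Fos (−0.45 to 0.12), Junb (−0.0593 to 0.58), Egr1 (−0.0333 to 0.20), Atf3 (−0.46 to 0.15) and Dusp1 (−0.44 to 0.20).

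Without the term for the mark, the log2 fold changes against C57BL/6 that changed sign were, in the libraries labelled Mertk-/-V2Tyro3-/-V2, Fos at 0.31, Junb at 0.0062, Egr1 at 0.0551 and Dusp1 at 0.28, and in Tyro3-/-V1, Jun at 0.17, Junb at 0.11, Ier2 at 0.24 and Klf4 at 0.0544. Jun in Tyro3-/-V1 was at 0.0404 with edgeR and 0.0466 with DESeq2. Leaving out both ends of the first component gave Fosb at −0.0746 and Klf4 at 0.0358 against C57BL/6, and between the mutant groups Junb at 0.0283, Nr4a1 at −0.34 and Klf4 at 0.15.

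Counts over all genes also changed with the settings. They cannot be compared with the member counts, which come from only 10 genes. Limma called 0.0375% to 0.523% of all genes, and at such shares 0 of 10 does not set the members apart. DESeq2 tested 19700 genes, or 18645 for Itgb5-/- against WT129. In the order in which the comparisons are given here, limma called 103, 9, 27, 33 and 7 genes and DESeq2 1725, 131, 692, 911 and 429. Leaving out 1 library gave 0 to 142, 3 to 9, 2 to 35, 4 to 91 and 0 to 10, and leaving out both component ends gave 13, 5, 11 and 9 in the first table. Without a filter the mutant groups differed in 41 genes and Itgb5-/- from WT129 in 19. A pseudocount of 10 gave 57 for the mark. With only the compared groups there were 29 and 2 against C57BL/6 and between the mutant groups, and 0 for the mark. With only marked libraries there were 11 and 5. Without the term for the mark, 53 genes were called between C57BL/6 and libraries labelled Mertk-/-V2Tyro3-/-V2, where TMM called 53 higher and 72 lower beside the main 54 and 49.

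With the replicate number as a block the counts over all genes were 716, 6, 36 and 0, without the comparison of the mark, 0 members passed and the limma adjusted p of Itgb5 in Itgb5-/- was 0.1605. The labels do not say whether libraries of the same number belong together. Over the genes, deviations from the group mean were correlated at −0.214 to 0.559 between same-numbered libraries. Between differently numbered libraries they were correlated at −0.69 to 0.328. Pairing by number was not tested beyond these values. Fosb and Atf3, with as few as 19 reads in a library, are the members whose levels depth limits most.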
